A study of Mus musculus with 7 samples.

Results

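This report describes 9 mouse genes of metal handling in liver: the metallothioneins Mt1 and Mt2, the hepcidins Hamp and Hamp2, and Cp, Trf, Tfrc, Hpx and Hp, whose products carry or take up copper, iron, haem or haemoglobin. They were found by gene symbol through the RefSeq accession of each array probe, and all 9 had a probe, 12 probes in 21 spots, among 32451 genes on the array. Liver RNA of male C57/BJ mice aged 26 weeks was measured on 1-colour Agilent arrays. The 4 chow samples came from mice kept on a control chow diet (Provimi Kliba) and the 3 high-fat diet (HFD) samples from mice kept on D12331 (ResearchDiets), in both cases for 20 weeks from 6 weeks of age. No transgene or drug is named for either group. The labels do not say whether each sample is a separate animal, so p-values measure the spread between these samples.

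Metallothioneins are small cysteine-rich proteins that bind zinc and copper. Their genes are switched on by the metal-responsive factor Mtf1, by glucocorticoids and by inflammatory signals. Hepcidin is the liver hormone that limits iron entry into plasma by removing the iron exporter ferroportin from cell surfaces, and bone morphogenetic protein (BMP) and interleukin-6 signals raise its transcription. Ceruloplasmin (Cp), transferrin (Trf), hemopexin (Hpx) and haptoglobin (Hp) are plasma proteins secreted by hepatocytes, and several of them are acute phase proteins.

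The data hold a scanner file per array and an authors' table of log2 values for 1615 probes, which stand for 1488 genes. The 3 HFD scanner files followed their own columns of that table with a Pearson r of at least 0.99992 across probes, and the 4 files labelled chow with r between 0.58001 and 0.58896. Each of the 20 hepatocyte markers gave a signal well above background in all 3 HFD files, and 7 of 20 were not on any file labelled chow, albumin among them. The diet comparison was therefore made on the table, and scanner levels are given for HFD. Chow and HFD values were separate at each of the 1615 table probes (100%), so the table had been selected on this comparison and its p-values are not independent evidence. In the limma fit 328 genes were called higher and 262 lower in HFD, 182 and 604 when each column was centred on its median, and 278 and 511 after quantile normalization. HFD column medians lay 0.21 above those of chow on the log2 scale. All HFD files carry the same scan day, while that of the table's chow columns is unknown, and an effect of the day and of the diet cannot be told apart.

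Of the 9 genes, 2 were listed in the table, 22.2% of the members beside 4.59% of all genes on the array. Mt1 was lower in HFD, and Hamp2 had higher values in HFD that did not pass the test. For Mt2, Hamp, Cp, Trf, Tfrc, Hpx and Hp no diet difference was analysed here. Since the genes were chosen with results of these data known, nothing is read from the share that is listed.

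Mt1, a zinc- and copper-binding metallothionein, fell in HFD. Its log2 values in the table were 18.15, 17.67, 18.23 and 18.00 in chow replicates 1 to 4. In HFD replicates 1 to 3 they were 15.19, 15.43 and 14.69. Every chow value lay above every HFD value, with a gap of 2.24 between the groups, and HFD replicate 3 was the lowest sample. The means were 18.01 ± 0.25 (SD, n = 4) and 15.10 ± 0.38 (SD, n = 3), a 7.51-fold difference with a 95% confidence interval of 5.32 to 10.6. The log2 fold change was -2.91 with an SE of 0.21, and the gene passed in limma (adjusted p = 0.015, Benjamini-Hochberg over all 32451 genes). It was the 8th lowest of 687 lower genes in the table. Of the 2 members with a table value, Mt1 was the only 1 called in either direction. Of all table genes 39.7% were called, 22% higher and 17.6% lower. Of all genes on the array, 0.807% were called lower. In bulk tissue, fewer cells of a type and less RNA per cell cannot be told apart.

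Calls fell over the whole table with 1 sample fewer, to 0 genes without chow replicate 1 or HFD replicate 1. The Mt1 call did not hold in every such fit. The adjusted p in limma was 0.0583 without chow replicate 1, 0.058 without chow replicate 4 and 0.0854 without HFD replicate 1, with log2 fold changes of -2.86, -2.91 and -2.95.

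Mtf1 encodes the zinc-sensing factor that binds metal response elements in metallothionein promoters, and it was the only other gene of the 15 on the metallothionein and zinc list with a table value. Its log2 values were 6.80, 6.81, 6.82 and 6.67 in chow replicates 1 to 4, and 6.02, 6.37 and 6.09 in HFD replicates 1 to 3. All HFD values were below all chow values, by at least 0.30. The log2 fold change was -0.61 with an SE of 0.11, and Mtf1 missed the threshold in limma (adjusted p = 0.0512). It passed in limma with the columns centred on their medians (log2 fold change -0.83, adjusted p = 0.0254), with quantile normalization (adjusted p = 0.0411) and with the variance prior of the table's own genes (adjusted p = 0.0373). Table genes called lower also rose in these fits, from 262 to 604, 511 and 474. The value rests on 1 of the 3 Mtf1 probes of the array. A brighter Mtf1 probe, well above background on all 3 HFD arrays, was not analysed for diet here.

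**Figure D1:**
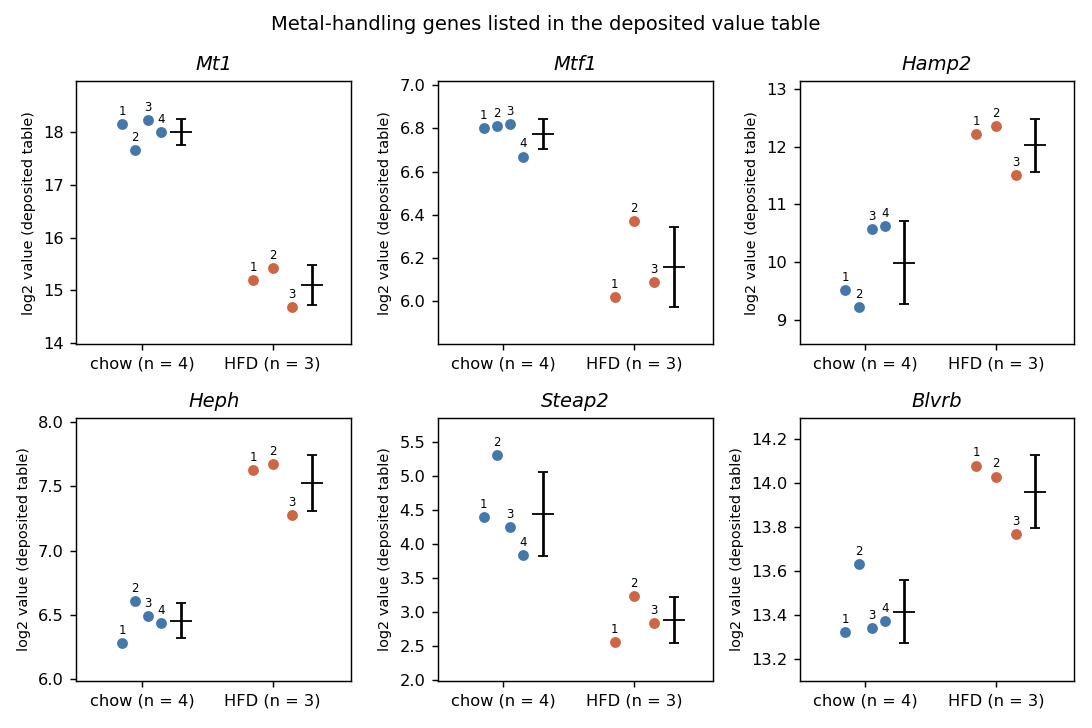
Log2 values of the deposited table (vertical axes, each with its own range) for 6 metal-handling genes in chow (blue, n = 4) and HFD (orange, n = 3). Points are samples with their replicate number, and the bar beside each group is the mean ± SD. Mt1 lies between 17.67 and 18.23 in chow and between 14.69 and 15.43 in HFD, and HFD replicate 3 is the HFD sample closest to chow for Hamp2, Heph and Blvrb.

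The metallothionein promoters are shown because metal response elements are the known route from Mtf1 to these genes. Each line gives the 250 bases before the RefSeq start on the plus strand (build GRCm38.p6), chr8:94178839-94179088 for Mt1 and chr8:94172368-94172617 for Mt2. Capitals mark the core of the metal response element, searched as TGCGCNC and TGCACNC on both strands.
Mt1: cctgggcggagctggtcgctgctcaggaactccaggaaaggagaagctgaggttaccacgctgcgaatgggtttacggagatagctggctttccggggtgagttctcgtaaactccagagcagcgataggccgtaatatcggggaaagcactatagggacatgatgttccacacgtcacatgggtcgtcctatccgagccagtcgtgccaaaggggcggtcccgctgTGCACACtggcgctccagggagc
Mt2: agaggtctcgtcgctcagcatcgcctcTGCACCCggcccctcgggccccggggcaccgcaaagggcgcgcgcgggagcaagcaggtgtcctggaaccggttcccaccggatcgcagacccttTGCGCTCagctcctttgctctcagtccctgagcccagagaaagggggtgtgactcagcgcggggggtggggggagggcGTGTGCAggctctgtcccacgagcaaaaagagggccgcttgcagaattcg
The window of Mt1 held 1 core and that of Mt2 held 3. Among 32851 promoter windows of the same length, 21.4% held at least 1 core and 1.26% at least 3. With the 50 bases after the start included, the counts were 3 for Mt1 and 4 for Mt2, and 1.97% of windows held at least 3. Of the other members with an entry, Tfrc held 2 overlapping cores in 1 of its windows, and Cp, Hpx, Hamp and Hamp2 held none. A match is a run of letters and not a measured binding site.

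Mt2, the neighbouring and usually co-induced metallothionein gene, has HFD scanner levels. Levels are log2 processed signals minus the 75th percentile of the array, so 0 is the 75th percentile. Mt2 had 4.43, 4.83 and 4.53 in HFD replicates 1 to 3, a mean of 4.60 ± 0.21 (SD, n = 3). Mt1 had 5.28, 5.73 and 4.97 on the same scale, with an SD of 0.38. Both genes were highest in HFD replicate 2. The lowest array was HFD replicate 3 for Mt1 and HFD replicate 1 for Mt2, but with quantile normalization it was HFD replicate 3 for both. Levels of different probes are not compared, since their binding differs.

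Hamp2, the second mouse hepcidin gene, had higher values in HFD. Its log2 values in the table were 9.52, 9.23, 10.58 and 10.63 in chow replicates 1 to 4, and 12.21, 12.36 and 11.50 in HFD replicates 1 to 3. The groups were 0.87 apart at their nearest samples, chow replicates 3 and 4 lying above chow replicates 1 and 2 and HFD replicate 3 below the other HFD samples. The means were 9.99 ± 0.72 (SD, n = 4) and 12.02 ± 0.46 (SD, n = 3). The log2 fold change was 2.03 with an SE of 0.41, a 4.09-fold difference with a 95% confidence interval of 2.09 to 8.02. In limma this missed the threshold (adjusted p = 0.061), and 80 of the 801 higher table genes had a larger fold change. It passed with the variance prior of the table's own genes (adjusted p = 0.0412 in limma), which called 552 table genes higher in place of 328.

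Hamp, the main hepcidin gene, was the member whose signal differed most between the HFD arrays. Its level was 3.84, 4.01 and 5.46 in HFD replicates 1 to 3, with an SD of 0.90 (n = 3). HFD replicate 3 was 2.92-fold above the mean of the other HFD arrays, and 0.766% of 17616 genes well above background on all 3 arrays lay at least as far from the mean of the other arrays on that array. Hamp2 went the other way on the same arrays, with levels of 2.44, 2.63 and 1.81. HFD replicate 3 was 1.65-fold below the mean of the others for Hamp2, and 7.33% of genes lay at least as far. Hamp and Hamp2 each had 1 probe with 1 spot per array, so no other spot checks these levels under any scaling. Whether either probe also binds the transcript of the paralog was not tested. The array highest for Hamp was thus the lowest for Hamp2, and this order held under median scaling, quantile normalization and normexp correction, where HFD replicate 3 lay 0.99 to 1.05 above the mean of the 3 arrays for Hamp and 0.44 to 0.52 below it for Hamp2.

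Marker genes of other cell types were summed on the same arrays. Summed over each list and in multiples of the array's 75th percentile, HFD replicates 1, 2 and 3 had 4710, 6590 and 6340 for 20 hepatocyte markers. The 14 macrophage and Kupffer cell markers measured gave 125, 63.4 and 62.3, and the 5 neutrophil markers 21.1, 11.5 and 10.9. The 5 endothelial markers gave 14, 16 and 12.5, and the 5 stellate cell markers 4.74, 3.23 and 2.52. Cd163 and Ltf were not well above background on all 3 HFD arrays. A sum weights each marker by its signal, and the neutrophil list includes Lcn2, which is also on the iron transport and storage list. HFD replicate 1 had the highest macrophage, neutrophil and stellate sums and the lowest hepatocyte sum, and HFD replicate 3 had the lowest endothelial sum. The arrays also differed in quality, and each was on its own slide. The 75th percentile that divides the sums was 971, 758 and 838 in HFD replicates 1 to 3. The share of spots well above background was 57.0%, 62.3% and 66.8%. The part of the markers and of array quality in the results on Hamp, Hamp2, Trf, Mt1 and Mt2 was not tested. The table lists 2 of the macrophage markers and 3 hepatocyte markers, so the same sums cannot be formed for its chow columns.

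**Figure D2:**
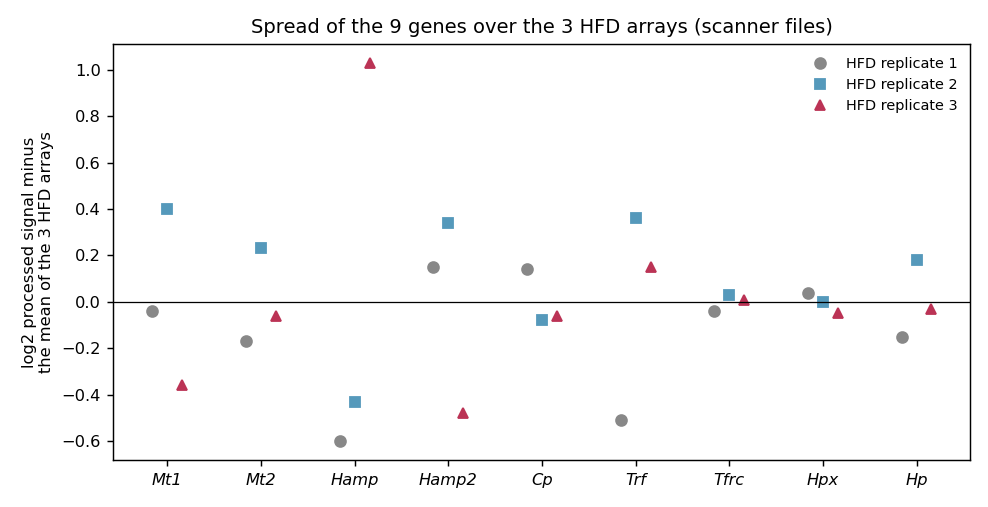
Log2 processed signal of each gene on each HFD array minus the gene's mean over the 3 HFD arrays (vertical axis), for the brightest probe of each of the 9 genes (horizontal axis). Symbols mark HFD replicates 1 to 3. HFD replicate 3 lies 1.03 above the mean for Hamp and 0.48 below it for Hamp2, while Tfrc and Hpx spread over 0.06 and 0.09.

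The hepcidin promoters are shown because the paralogs share most of this sequence and differ inside a known regulatory element. Each line gives the 250 bases before the RefSeq start, written 5′ to 3′ on the minus strand (build GRCm38.p6), chr7:30944030-30944279 for Hamp and chr7:30924182-30924431 for Hamp2. Capitals mark the BMP response element core GGCGCC and the STAT palindrome TTCNNNGAA, the latter the type of site through which interleukin-6 acts.
Hamp: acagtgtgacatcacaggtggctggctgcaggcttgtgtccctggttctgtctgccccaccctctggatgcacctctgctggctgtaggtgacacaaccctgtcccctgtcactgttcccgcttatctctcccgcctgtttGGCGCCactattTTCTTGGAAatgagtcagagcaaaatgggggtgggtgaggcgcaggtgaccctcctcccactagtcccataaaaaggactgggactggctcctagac
Hamp2: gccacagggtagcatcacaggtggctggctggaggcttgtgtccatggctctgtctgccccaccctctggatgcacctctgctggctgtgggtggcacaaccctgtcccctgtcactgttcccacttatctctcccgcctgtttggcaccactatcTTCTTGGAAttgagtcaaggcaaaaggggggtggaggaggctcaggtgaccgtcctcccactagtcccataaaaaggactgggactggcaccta
The windows were identical at 227 of 247 aligned bases (91.9%). Both held the STAT palindrome, 97 to 89 bases before the start in Hamp and 94 to 86 in Hamp2, as did 7.02% of all promoter windows. The BMP core was found in Hamp, 109 to 104 bases before the start, and not in the Hamp2 window, and 9.59% of all windows held it. Within that core the aligned difference was G145A, with positions counted from the 5′ end of the Hamp window, the base of Hamp first. No binding of a factor was measured, and the absence of these letters in 1 window says nothing of the factor.

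Of the plasma carriers, Cp carries copper and oxidises iron, and its HFD levels were 7.06, 6.85 and 6.87 in replicates 1 to 3 (SD 0.12, n = 3). Hp, which captures free haemoglobin, had 8.92, 9.26 and 9.05 (SD 0.17). Hpx, which captures free haem, had 8.64, 8.60 and 8.55. Its SD of 0.04 was larger than that of 5.89% of 17616 genes, whose median SD was 0.17. These 3 genes thus had SDs at or below that of the typical gene over the HFD arrays, although quantile normalization gave Cp and Hpx a range of 0.58 each, in place of 0.22 and 0.09.

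Trf, the plasma iron carrier, had 2 probes that did not spread alike. The first (A_55_P2037584) had levels of 8.72, 9.59 and 9.38 in HFD replicates 1 to 3, with an SD of 0.45. The other (A_55_P2037585) had 8.81, 9.13 and 9.05, with an SD of 0.17. Both were lowest in HFD replicate 1 and highest in HFD replicate 2, by a range of 0.87 and of 0.32. For the second probe this order came with the scaling. Its signals before scaling were 435817, 424039 and 444027, lowest in HFD replicate 2. Those of the first were 408543, 583626 and 556535, in the same order as its levels. Under quantile normalization the range of the first fell to 0.28, so its size depends on the scaling.

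Tfrc encodes the transferrin receptor, through which cells take up iron-loaded transferrin. Its probe with 10 spots per array gave levels of -2.50, -2.43 and -2.45 in HFD replicates 1 to 3, an SD of 0.03 (n = 3). The coefficient of variation between those spots was 8.56%, 5.88% and 6.00% on the 3 arrays. The arrays thus lay close together. Another Tfrc probe gave -2.62, -2.54 and -2.65, and the remaining probe was not well above background on any HFD array.

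Across the 9 genes, 5 had an SD over the HFD arrays above the median of all genes well above background. These were Mt1, Mt2, Hamp, Hamp2 and Trf, with SDs from 0.21 to 0.90. Hamp exceeded 98.5% of genes, Trf 88.2%, Hamp2 86.5%, Mt1 83.2% and Mt2 58.4%. With 3 arrays these percentages describe the arrays and carry no test, and 5 of 9 is near the share of genes above any median. Under quantile normalization Mt2 (SD 0.16) and Trf (0.14) spread less than Cp (0.32), Hpx (0.32) and Hp (0.20). Which members are counted thus depends on the scaling.

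The wider lists of metal handling had few table members. Of 106 genes on the array in 6 lists, 6 were in the table (5.66%, beside 4.59% of all genes). In HFD 3 of these were higher and 3 lower. Of the 6, 2 passed, and 39.7% of all table genes did, 590 of the 32451 genes on the array. The median log2 fold change of the 6 was -0.03, beside 0.44 over all table genes. This median mixes both directions, and the median absolute log2 fold change was 1.32, beside 0.83 over all table genes. Of 23 genes of iron transport and storage and 10 glucocorticoid and cytokine response genes, none was listed in the table, and 20 and 9 of them were well above background on all 3 HFD arrays. No limma fit could be made for these, at an unadjusted p or otherwise.

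Heph encodes hephaestin, a copper-dependent ferroxidase related to ceruloplasmin, and it rose. Its log2 values were 6.28, 6.61, 6.49 and 6.44 in chow replicates 1 to 4, and 7.63, 7.67 and 7.28 in HFD replicates 1 to 3. The groups were 0.67 apart, and HFD replicate 3 was the HFD sample nearest to chow. The log2 fold change was 1.07 with an SE of 0.14, a 2.10-fold difference (adjusted p = 0.0261 in limma). Of table genes 22% were called higher, beside 1.01% of all genes on the array. Heph did not pass without any 1 of chow replicates 1 to 4 or of HFD replicates 1 and 2 (adjusted p in limma of 0.0551 to 0.123). Calls fell over the whole table in these fits, to at most 47 higher and 51 lower (without chow replicate 2). The value rests on 1 of 3 Heph probes, and the other probes were not well above background on any HFD array.

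Steap2, a metalloreductase of iron and copper, had log2 values of 4.39, 5.30, 4.25 and 3.84 in chow replicates 1 to 4, and of 2.56, 3.23 and 2.84 in HFD replicates 1 to 3. Its log2 fold change was -1.57 with an SE of 0.34, and the adjusted p of 0.0724 from limma missed the threshold. It was 0.0408 in limma with quantile normalization, under which 511 table genes were called lower in place of 262. This probe was not well above background on any HFD array, and 3 of 4 chow values lay below the highest detection floor of the HFD arrays (4.77), so no fold is given. Another Steap2 probe was well above background on all 3 HFD arrays and was not analysed for diet here.

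Blvrb encodes biliverdin reductase B, which acts downstream of haem breakdown. Its log2 values were 13.32, 13.63, 13.34 and 13.37 in chow replicates 1 to 4, and 14.08, 14.03 and 13.77 in HFD replicates 1 to 3. The log2 fold change was 0.55 with an SE of 0.13, and the limma test was not passed (adjusted p = 0.0816). The nearest samples of the groups, chow replicate 2 and HFD replicate 3, were 0.14 apart.

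**Figure D3:**
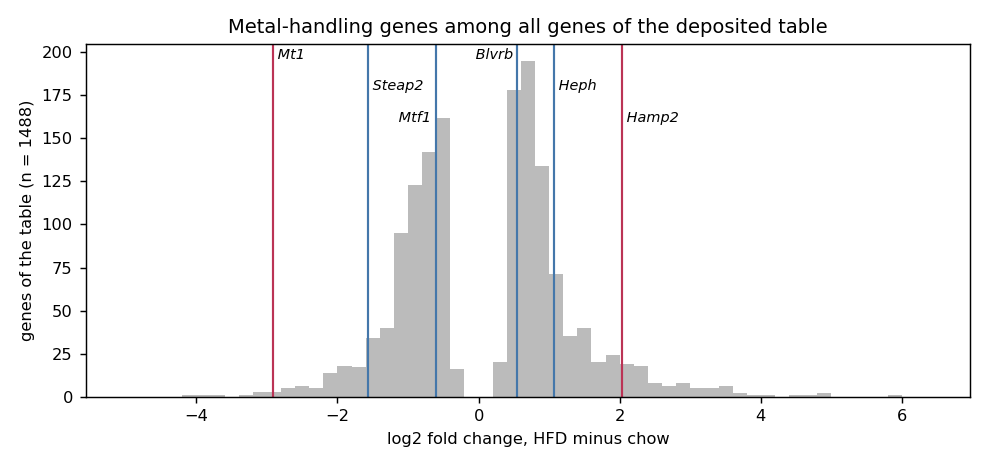
Histogram of log2 fold changes, HFD minus chow, of the 1488 genes in the deposited table (vertical axis, number of genes), with red lines for Mt1 and Hamp2 and blue lines for Steap2, Mtf1, Blvrb and Heph. Mt1 at -2.91 lies in the lower tail, and the empty centre shows that small differences are not in the table.

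Deviations from the group means described which table genes varied like Mt1 and Hamp2 over the 7 columns. Among 1165 named genes, Pcdhb16 (Pearson r = 0.985) and Mmgt2 (r = 0.940) were most like Mt1, and Capn10 (r = 0.980) and Chrna4 (r = 0.935) most like Hamp2. Group means were removed, so this likeness leaves out the diet difference. The log2 fold changes were 1.08 for Pcdhb16 and -1.21 for Mmgt2, beside -2.91 for Mt1. They were -0.80 for Capn10 and 3.18 for Chrna4, beside 2.03 for Hamp2. Mt1 and Hamp2 had r = 0.683 with each other. All genes share the same columns and their scaling, and these correlations carry no test.

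The scanner files labelled chow are given for the same probes as a description. Mt1 had log2 processed signals of 17.69 to 17.78 there, beside 17.67 to 18.23 in the table's chow columns. Hamp2 had 2.92 to 3.73 there, beside 9.23 to 10.63 in the table, and neither Hamp2 nor Hamp was well above background on any of these 4 files. The Hp signal was 393 to 537 in them, and 444784 to 471397 in the 3 HFD files. Hpx had 53.2 to 74.4 in them, and 293426 to 386005 in the HFD files. Because these files did not hold the table's chow values, no diet difference is drawn from them.

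**Figure D4:**
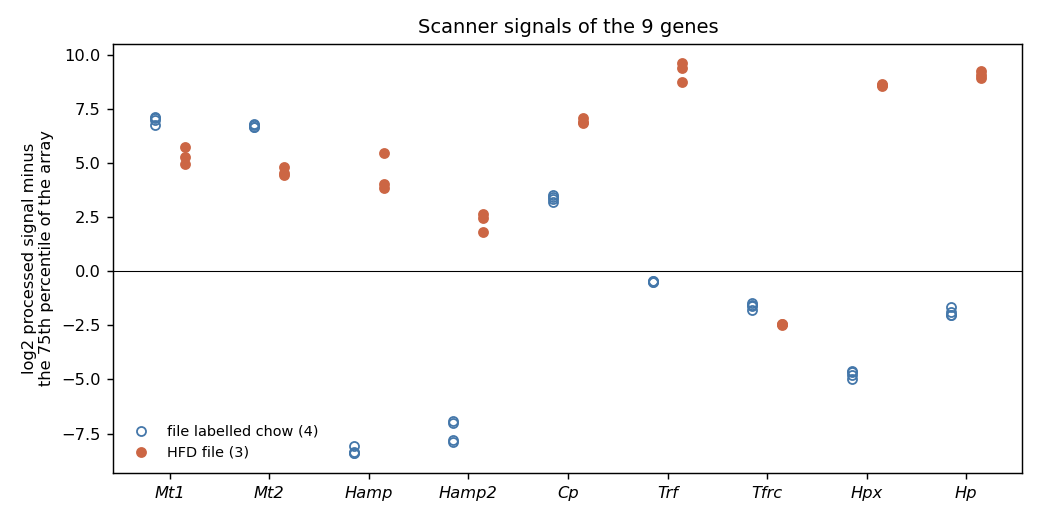
Log2 processed signal minus the 75th percentile of the array (vertical axis) for the brightest probe of each of the 9 genes, in the 4 scanner files labelled chow (open blue) and the 3 HFD files (filled orange). Hamp and Hamp2 lie at -6.90 or lower in the files labelled chow, where they were not well above background, and different probes are not to be compared with each other.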

How the data were processed

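The 9 genes, the gene lists and the tests were chosen with earlier results of these data known. Cy3-labelled RNA (0.5 microgram) was hybridised to 1 array per sample, per the labels' protocols. The deposited scanner files hold intensity values, of which the processed signal is background-subtracted by Agilent Feature Extraction 10.7.3.1 per the file headers (version 9.1 per the submitters' processing notes). The authors also deposited log2 values for 1615 probes, with a normalization and a selection not given in the sources used here.

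Samples were grouped by title. Probes were named through RefSeq accessions (27228 of 39429 probes, table of assembly GRCm38.p6, names only). Promoter windows are RefSeq's, and Trf and Hp had no entry. Outlier spots were left out and spots of a probe averaged, with 0 saturated spots found. The share of spots well above background was 57.0% to 66.8% per array, and the number of arrays limits precision.

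The table was fitted with limma 3.58.1 (R 4.3.3), HFD against chow, using for each gene the brightest of its probes in the table. Brighter probes outside the table, as for Mtf1 and Steap2, were not used. Variances were moderated toward a prior (0.0354, 2.08 degrees of freedom) from 18057 genes outside the table on the HFD arrays. Benjamini-Hochberg adjustment covered all 32451 genes of the array, and those outside the table counted as tested and not called. The threshold was 0.05. The fit was tested on simulated data. Named genes were the 9 members, every list gene in the table, and for each member in the table the 2 genes most like it. Of the marker lists, 1 is not reported here. The numbers 1 to 3 shared by both groups were checked for pairing. Alternatives were the prior, the adjustment, probe averaging, centring, quantile normalization, each sample left out and a replicate block. For scanner levels they were the scaling and background correction (normexp on median signals, chosen after seeing the data because the files hold no mean signal).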

Additional observations from a re-analysis of the deposited data

Results flagged for a closer look

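Among the 6 table genes described, the 4 chow values held a sample far from the others in 2 cases, measured as the gap to the nearest sample over the whole range of the group against Dixon's 95% critical value. For Mtf1, chow replicate 4 had 6.67 and the other chow samples 6.80 to 6.82, a share of 0.88. For Blvrb, chow replicate 2 had 13.63 and the other chow samples 13.32 to 13.37, a share of 0.839. Chance marks about 1 in 20 such groups.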

How the results depend on the processing

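Mt1 was lower and Hamp2 higher in HFD under each of the 13 alternatives run. The groups do not overlap for either gene. Leaving out a sample, the block, the prior and the adjustment therefore could not reverse these directions. Leaving out each sample gave log2 fold changes from -3.07 to -2.70 for Mt1, from 1.78 to 2.29 for Hamp2 and adjusted p in limma from 0.0155 to 0.0854 for Mt1. The number of the 9 genes that passed, 1, then ranged from 0 to 1, and that of the 6 list genes in the table, 2, from 0 to 2. Hamp2 passed with the table's own prior (2.03, adjusted p = 0.0412 in limma) and with adjustment over the table alone (2.03, adjusted p = 0.0028 in limma). In these fits 2 of the 9 genes and 4 or 6 of the list genes passed. That prior called 552 table genes higher and 474 lower. Adjustment over the table alone called every table gene, 801 higher and 687 lower, so passing there sets no gene apart. Under quantile normalization 4 list genes passed. Over the whole table, 0 genes were called in limma without chow replicate 1 or HFD replicate 1, and without another sample the calls ranged from 2 higher and 1 lower (without chow replicate 4) to 241 higher and 207 lower (without HFD replicate 3). Replicate numbers did not pair the samples, as same-numbered samples had correlations of -0.102, 0.138 and 0.028 between deviations. With the replicate block, over 6 samples, Mt1 had -2.91 (adjusted p = 0.225 in limma) and Hamp2 2.25 (adjusted p = 0.341), and 0 members, 0 list genes and 0 table genes passed. In each of these fits with a count of 0, both members, all 6 list genes and all 1488 table genes had an unadjusted p under 0.05 in limma, as they did in the fit of all 7 samples, on which the table was selected; no other tool was run. The Hamp range over the HFD arrays, 1.63, went from 0.17 (without HFD replicate 3) to 1.63 when each array was left out. The number of members with an SD above the median of all genes, 5, was 6 under each other scaling and background correction. It was 4 to 6 with each HFD array left out. The genes counted were not the same under quantile normalization, where the SDs of Cp (0.32), Hpx (0.32) and Hp (0.20) exceeded those of Mt2 (0.16) and Trf (0.14). A planned normexp correction of mean signals was not run.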
